A study of Mus musculus with 24 samples.

Results

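The genes of the 3 mouse immunoglobulin loci were examined in the surface RNA of 5 blood cell types and in the total RNA of blood mononuclear cells. A gene was taken as a member when its rows in the surface RNA tables carried the type IG_V_gene, IG_D_gene, IG_J_gene or IG_C_gene. This gave 264 genes, of which 236 had rows in all 5 tables, out of 35063 genes common to the tables. The 236 genes comprised 13 constant (C), 9 joining (J) and 214 variable (V) genes. The 19 diversity (D) genes of the heavy chain locus were listed only in the monocyte table and were at 0 there in all 3 libraries, so they entered no comparison. They are 10 to 29 bases long, far shorter than the reads, so a value of 0 does not show that they were absent. All 264 symbols were also listed in the blood cell files, which hold 55335 genes, and 204 of them had counts above 0 there.

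Surface RNA had been amplified in place with T7 RNA polymerase, without extraction from the cells. The polymerase started at the T7 promoter of a double-stranded DNA probe, whose overhang of random bases was annealed to fixed cells on Concanavalin A beads. The cells came from wild-type C57BL/6 mice that received no treatment named in the labels. B cells, CD8 T cells and natural killer (NK) cells were isolated from spleen, and monocytes and lineage-depleted stem and progenitor cells (HSPCs) from femoral bone marrow, with a commercial isolation kit for each and lysis of red blood cells, and there were 3 libraries of each type. The B, T, NK and HSPC libraries were sequenced on another platform than the monocyte libraries, so that platform and cell type cannot be told apart for monocytes. The 9 blood libraries held total RNA extracted from PBMCs, the mononuclear cells of peripheral blood, of genotype wild type, in groups labelled ct, WT and Y with 3 libraries each, and the labels do not explain these names. Age and sex of the mice were not given in the labels, and nothing there says that the libraries of a group came from separate animals. The study calls the murine surface libraries biological replicates without saying whether each came from its own mouse, so the p-values measure the spread between libraries. For the PBMC libraries this spread may be technical.

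A B lymphocyte assembles its antibody genes by joining a V, a D and a J segment of the heavy chain locus (Igh) and a V and a J segment of a light chain locus, kappa (Igk) or lambda (Igl). The joined segments are transcribed together with a constant gene. Resting mature B cells use the heavy chain constant genes Ighm and Ighd, which encode IgM and IgD, whereas class switching places one of the Ighg genes, Ighe or Igha next to the joined segments. A choice of polyadenylation site and splicing then makes either a membrane form, which serves as the antigen receptor, or a secreted form, which is the antibody released by plasma cells. The other cell types studied here are not known for making rearranged immunoglobulin transcripts.

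The heavy chain forms differ in their last coding bases, and these are shown because the comparison of B and NK cells below turns on them. Each line holds the last 24 coding bases shared by the secreted and membrane forms in lower case, followed in capitals by the bases of one form alone up to the stop codon. They were read from the GENCODE M21 transcripts of GRCm38, the build of the mm10 genome named in the submitters' processing notes, and all lie on the minus strand of chromosome 12 within constant region exons. The capitals of secreted Ighm lie at chr12:113420867-113420928 and those of secreted Igha at chr12:113258768-113258829. Those of membrane Ighm lie in 2 exons between chr12:113418826-113419068.
Ighm-201, secreted: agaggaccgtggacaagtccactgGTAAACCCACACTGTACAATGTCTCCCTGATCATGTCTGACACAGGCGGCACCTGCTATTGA
Igha-201, secreted: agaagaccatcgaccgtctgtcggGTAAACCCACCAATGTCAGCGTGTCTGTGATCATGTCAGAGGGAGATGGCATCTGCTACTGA
Ighm-202, membrane: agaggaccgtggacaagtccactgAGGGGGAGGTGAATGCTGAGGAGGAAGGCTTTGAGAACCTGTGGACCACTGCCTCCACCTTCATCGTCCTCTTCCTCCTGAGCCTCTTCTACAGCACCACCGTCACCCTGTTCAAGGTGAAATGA
The secreted tails of Ighm and Igha were both 62 bases long and held the same base at 43 positions. In IgM and IgA the cysteine that binds the J chain lies in this tail.

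The J segments are shown because together they held more of the summed level than the V or the C genes in the B, NK, HSPC and monocyte libraries. Capitals mark the J motif, searched on both strands as TGGGG for the heavy chain or TTCGG for the light chains, then any 4 bases, then GG and 1 further base. The J genes of Igh lie on the minus strand of chromosome 12, those of Igk on the plus strand of chromosome 6 and those of Igl on the minus strand of chromosome 16 (GRCm38, GENCODE M21).
Ighj1, chr12:113429781-113429833: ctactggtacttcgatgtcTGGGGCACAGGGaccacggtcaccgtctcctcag
Ighj2, chr12:113429468-113429515: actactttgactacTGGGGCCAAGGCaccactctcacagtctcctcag
Ighj3, chr12:113429085-113429132: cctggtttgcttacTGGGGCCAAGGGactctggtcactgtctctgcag
Ighj4, chr12:113428514-113428567: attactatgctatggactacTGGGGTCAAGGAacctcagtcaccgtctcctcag
Igkj1, chr6:70722562-70722599: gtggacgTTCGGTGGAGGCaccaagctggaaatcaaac
Igkj3, chr6:70723223-70723260: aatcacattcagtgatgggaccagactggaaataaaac
Igkj4, chr6:70723548-70723585: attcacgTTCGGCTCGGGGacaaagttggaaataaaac
Iglj1, chr16:19063225-19063262: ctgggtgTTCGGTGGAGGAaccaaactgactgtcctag
Iglj3p, chr16:19066371-19066408: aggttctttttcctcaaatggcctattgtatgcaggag
The heavy chain motif was in all 4 Igh segments and in 10 of 271 V and 4 of 20 C transcripts on the sense strand, and on the antisense strand in 0 J, 1 V and 10 C transcripts. The light chain motif was in 3 of the 9 J segments and in 0 V and 0 C transcripts on either strand. Igkj3, a J segment known as nonfunctional, and Iglj3p held neither motif.

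The surface tables give TPM, transcripts per 1000000, a measure of level per transcript length whose sum is the same in every library. The 236 genes summed to 3596, 2323 and 2419 TPM in the B libraries and to 1578, 2398 and 3861 TPM in the NK libraries. They summed to 146, 327 and 1024 TPM in T cells, to 277, 290 and 214 TPM in HSPCs and to 348, 483 and 500 TPM in monocytes. The B mean was 2779 ± 709 TPM and the NK mean 2612 ± 1156 TPM (SD, n = 3), and their ranges overlapped. The means of T cells, 499 ± 463 TPM, of HSPCs, 260 ± 40.3 TPM, and of monocytes, 443 ± 83.2 TPM (SD, n = 3), lay below every B and NK library, and the T cell range contained the monocyte and HSPC ranges. That order depends on the scaling: without ribosomal RNA and 3 genes of equal value, HSPCs had 1964 to 3075 TPM, T cells 353 to 2893 TPM and monocytes 701 to 1027 TPM. T library 3 stood apart within its group. In a bulk sample, fewer cells of a type and less RNA per cell cannot be told apart. In terms of genes above 0 TPM, the B libraries had 228, 220 and 210, the NK libraries 164, 176 and 196, and the monocyte libraries 39, 41 and 68. The study takes a transcript above 50 TPM as a positive hit. Summed by gene, 9 to 12 members passed 50 TPM in the B libraries, 7 to 12 in the NK libraries and 3 to 4 in the monocyte libraries. In T cells 0 to 5 members passed it, and in HSPCs 0. Sequencing depth of the surface libraries is unknown, because TPM keeps none.

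Split by kind, constant genes summed to 784 ± 227 TPM in B cells and 613 ± 208 TPM in NK cells, J genes to 1308 ± 272 and 1372 ± 784 TPM, and V genes to 687 ± 256 and 627 ± 172 TPM (SD, n = 3). For each of the 3 kinds the B and NK ranges overlapped. The J segments are 38 to 54 bases long, shorter than the reads, so their TPM rests on a very small length. Split by locus, Igh summed to 1515 ± 147 TPM in B cells and 1373 ± 798 TPM in NK cells and Igk to 1042 ± 504 and 1115 ± 322 TPM (SD, n = 3). The Igl locus summed to 295, 193 and 180 TPM in B cells and to 37.6, 179 and 154 TPM in NK cells, so the lowest B library was just above the highest NK library.

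**Figure D1:**
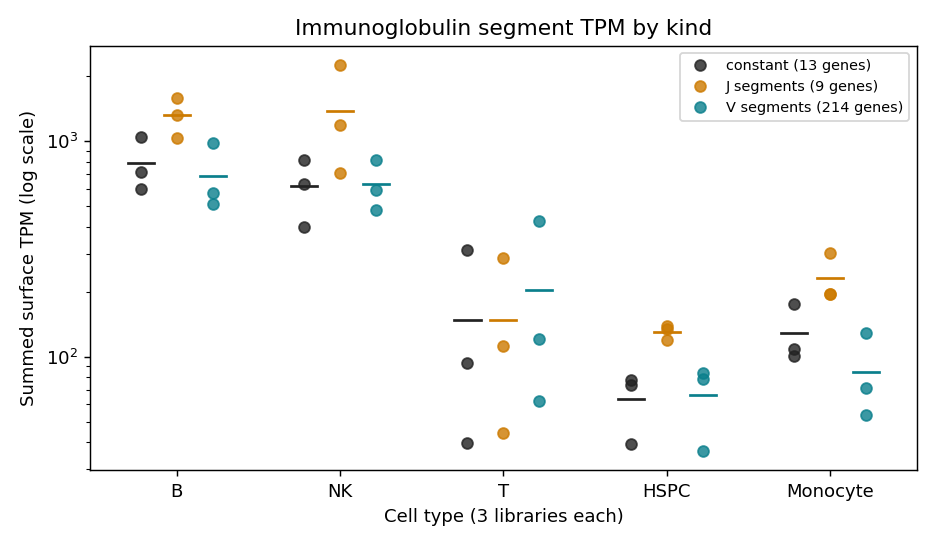
Summed surface TPM (log scale) of the constant, J and V genes by cell type, with 1 point per library (n = 3) and lines at the means. B and NK libraries overlap for each kind, with J sums of 1034 to 1578 and 705 to 2235 TPM, whereas J sums in the T, HSPC and monocyte libraries reach 303 TPM at most.

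The cell type labels were checked with marker lists. Genes that mark B cells (8 genes, among them Cd79a and Ms4a1) summed to 233 to 370 TPM in the B libraries, 12.3 to 21.4 TPM in NK cells, 3.94 to 11.2 TPM in monocytes, 1.33 to 2.17 TPM in T cells and 0.41 to 0.99 TPM in HSPCs. The NK cell list, with 7 of 7 genes above 1 TPM on average, summed to 209 to 528 TPM in the NK libraries and the T cell list, with 7 of 7, to 24.9 to 72.2 TPM in the T libraries. In the libraries labelled HSPC, 3 of 6 HSPC markers averaged above 1 TPM and the list summed to 10.3 to 15.8 TPM, below the 26.2 to 31.7 TPM of the monocyte libraries. Markers of pro- and pre-B cells summed to at most 1.73 TPM in any library.

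Among the constant genes, Ighm (chr12:113418558-113422730) was the highest heavy chain gene in every library. It measured 402, 330 and 304 TPM in B cells, 90.5, 211 and 254 TPM in NK cells and 16.5, 35.8 and 127 TPM in T cells. HSPCs had 18.1, 24.6 and 16.4 TPM of Ighm and monocytes 52.0, 54.6 and 90.6 TPM. Every B library was above every library of another type. Ighd (chr12:113406604-113416324) separated the B libraries furthest, with 64.6, 56.1 and 41.0 TPM against 0.70, 1.51 and 1.21 TPM in NK cells, 0.37, 0.26 and 0.23 TPM in T cells, at most 0.0892 TPM in HSPCs and at most 1.39 TPM in monocytes.

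The switched constant genes had another order. Ighg2c (chr12:113285325-113288932), an IgG gene of the C57BL/6 strain, measured 33.3, 26.7 and 13.3 TPM in NK cells and 2.40, 0.290 and 0.286 TPM in B cells, and was at most 2.53 TPM in T cells and lower in the bone marrow types. Ighg2b (chr12:113302965-113307933) measured 16.2, 36.3 and 27.0 TPM in NK cells, 2.98, 0.535 and 0.916 TPM in B cells and 0.634, 7.08 and 5.48 TPM in T cells. For both genes every NK library was above every library of the other types. All these levels were below the 50 TPM of a positive hit in the study. Igha (chr12:113254830-113260236), the IgA gene, measured 5.10, 8.77 and 58.8 TPM in NK cells, 10.5, 6.72 and 3.45 TPM in HSPCs, 4.33, 7.63 and 7.35 TPM in monocytes, 0.366, 0.979 and 3.42 TPM in T cells and 0.418, 0.220 and 1.86 TPM in B cells. Its NK, HSPC and monocyte ranges overlapped, and NK library 3 was far above the rest. No other library passed 50 TPM of Igha. Ighg1 reached 5.43 TPM in a monocyte library, Ighg3 5.52 TPM in an NK library, and Ighe, the IgE gene, was at most 0.0762 TPM in any library.

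As a share of the summed heavy chain constant TPM, the switched genes (Ighg1, Ighg2b, Ighg2c, Ighg3, Ighe and Igha) made up 1.58%, 0.382% and 1.06% in B cells. Their share was 39.5%, 26.5% and 29.9% in NK cells, 46.2%, 27.1% and 21.0% in HSPCs, 9.93%, 20.7% and 9.42% in T cells and 13.5%, 25.0% and 14.0% in monocytes. All 3 B libraries were below every other library. Within the switched genes Ighg2c led in NK library 1, Ighg2b in NK library 2 and Igha in NK library 3 and in all HSPC libraries.

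Of the light chain constant genes, Igkc (chr6:70726435-70726966) measured 409, 223 and 158 TPM in B cells, 232, 308 and 413 TPM in NK cells and 18.5, 39.2 and 149 TPM in T cells, with B and NK overlapping. Iglc2 (chr16:19198396-19200351) measured 68.6, 50.5 and 50.1 TPM in B cells, 5.90, 12.9 and 10.7 TPM in NK cells and at most 9.45 TPM elsewhere. Iglc3 measured 54.9, 27.5 and 21.3 TPM in B cells and 3.11, 5.46 and 6.00 TPM in NK cells, and Iglc1 31.1, 25.7 and 20.3 TPM against 6.23, 14.7 and 18.0 TPM. Iglc4 was at most 0.761 TPM in any library. The lambda share of light chain constant TPM was thus 27.5%, 31.9% and 36.7% in B cells and 6.16%, 9.68% and 7.74% in NK cells. The sequences of Iglc2 and Iglc3 are near copies of each other, so the split of reads between them is uncertain.

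**Figure D2:**
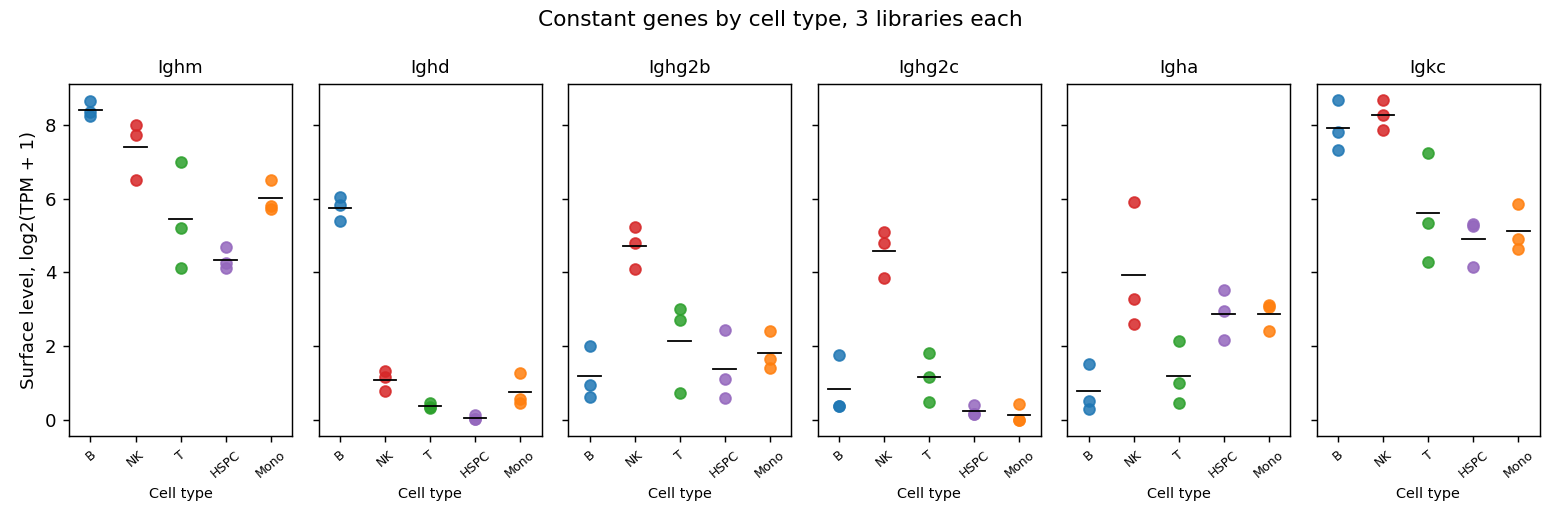
Surface level, as log2(TPM + 1), of Ighm, Ighd, Ighg2b, Ighg2c, Igha and Igkc by cell type, with 1 point per library (n = 3) and lines at the means of the log2 values. Ighd stands out in B cells, at 41.0 to 64.6 TPM, Ighg2b and Ighg2c are highest in NK cells, and Igkc overlaps between B and NK cells.

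To ask which immunoglobulin genes differ between B cells and the rest, log2(TPM + 1) was fitted with limma over 13026 genes above 1 TPM in at least 3 of the 15 libraries. This included 153 of the 236 members, 11 C, 8 J and 134 V genes, of which 41 passed through the B libraries alone and 112 passed without counting them. The other 83 members were not tested. A gene was called at an adjusted p under 0.05 (Benjamini-Hochberg over all 13026 genes), and each difference is given in log2(TPM + 1), where low genes appear to change less than they do.

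B cells were compared with the mean of the other 4 cell types. Of the 153 genes tested, 118 were higher in B cells, where 8.38% of all genes tested were higher, and 3 were lower, where 54.1% of all were. Of the 41 members that had passed the expression filter only through the B libraries, 34 were among the 118. The filter favoured that direction in advance. The shares over all genes depend on the filter and the scaling as well. Without monocyte library 1, 9173 genes passed the filter instead of 13026, and 40.6% of them were lower in B cells. After quantile normalization 120 of the 153 members were higher, where 22.5% of all genes were. In that fit 1 member was lower, where 25.7% of all were. The higher genes were 105 of 134 V, 7 of 8 J and 6 of 11 C genes. The median log2 difference was 1.41 over the members tested, 1.51 over the 112 that passed without the B libraries and -0.41 over all genes tested. The largest differences were those of Ighd (5.19, SE 0.18, limma adjusted p = 1.1e-10), Iglj1 (4.07, SE 1.04, adjusted p = 0.0041), Igkj1 (3.80, SE 0.99, adjusted p = 0.0048), Iglc2 (3.60, SE 0.42, adjusted p = 1.0e-05) and Ighj3 (3.60, SE 1.02, adjusted p = 0.0076). The 3 lower genes were all switched constant genes, namely Igha (-1.95, SE 0.55, limma adjusted p = 0.0078), Ighg2b (-1.33, SE 0.48, adjusted p = 0.027) and Ighg1 (-0.79, SE 0.27, adjusted p = 0.020). The calls of Ighg1 and Ighg2b were lost without B library 2 or without B library 3, and held in 17 and 16 of 22 alternatives.

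Against the other spleen types alone, T and NK cells, 64 of the 153 genes were higher in B cells (16.6% of all genes tested were higher) and 3 were lower (7.27% of all were lower), and 24 of the 64 had passed the filter only through B cells. The median log2 difference was 0.96 over the members, 0.95 over the 112 that passed without the B libraries and 0.08 over all genes. Constant genes called higher were Ighd (5.03, SE 0.19), Ighm (2.00, SE 0.50, limma adjusted p = 0.010), Iglc2 (3.09, SE 0.47), Iglc3 (3.02, SE 0.44) and Iglc1 (1.80, SE 0.44). Of the J genes only Iglj1 was called (3.30, SE 1.14, limma adjusted p = 0.0498), and 12 of its 24 alternatives called it. Iglv3 rose by 2.48 (SE 0.47, limma adjusted p = 0.0016). The lower genes were Ighg2b (-2.24, SE 0.52), Ighg2c (-2.03, SE 0.36) and Igha (-1.79, SE 0.61, limma adjusted p = 0.045), and the call of Igha was lost in 11 of 24 alternatives, among them a fit with T and NK libraries of the same number as 1 block (adjusted p = 0.054). Igkc, at 0.99 (SE 0.55, limma adjusted p = 0.23), was not called. Without B library 1 the higher genes numbered 29 of 142 (11.1% of all genes tested were higher), and without B library 2 they numbered 41 of 148 (9.59% of all).

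NK cells were then compared with B cells, a contrast chosen after the levels above were seen. Of the 153 genes, 6 were higher in NK cells (10.8% of all genes tested were higher) and 23 were lower (7.12% of all were lower). Of the 23, 11 had passed the filter only through the B libraries, which favoured that direction in advance. The median log2 difference was -0.41 over the members tested, -0.30 over the 112 that passed without the B libraries and 0.06 over all genes. The 6 higher genes were 5 of the 7 heavy chain constant genes tested, Ighg2c (3.75, SE 0.41, limma adjusted p = 1.9e-05), Ighg2b (3.53, SE 0.60, adjusted p = 0.00090), Igha (3.16, SE 0.70, adjusted p = 0.0057), Ighg3 (1.58, SE 0.37, adjusted p = 0.0075) and Ighg1 (1.46, SE 0.34, adjusted p = 0.0077), and the V gene Ighv1-75 (0.59, SE 0.17, adjusted p = 0.028). The largest decreases were those of Ighd (-4.67, SE 0.23), Iglc3 (-2.53, SE 0.50), Iglc2 (-2.45, SE 0.54), Iglv3 (-2.20, SE 0.55) and Ighv2-2 (-1.95, SE 0.50, limma adjusted p = 0.015). Ighm, at -1.01 (SE 0.58, limma adjusted p = 0.28), and Igkc, at 0.34 (SE 0.64, adjusted p = 0.79), were not called. The call of Iglv3 was lost without NK library 3 and that of Ighv2-2 without NK library 1, and they held in 21 and 20 of 23 alternatives. Igha was called in 23 of 24 and Ighg3 in 22 of 23. Without B library 1 the lower genes numbered 12 of 142 (5.74% of all genes tested were lower), which is nearer the share over all genes, and without B library 2 they numbered 15 of 148 (4.36% of all).

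The forms of the heavy chain followed the same split. The secreted form of Ighm, Ighm-201, took 20.3%, 10.4% and 11.3% of the Ighm TPM in the B libraries. Its share was 88.4%, 92.1% and 94.3% in NK cells, 91.9%, 89.0% and 86.1% in HSPCs, and 88.6%, 84.9% and 94.9% in T cells. Monocytes lay between, with 40.3%, 38.0% and 54.2%. The B range did not overlap that of any other type, and neither did the monocyte range. Each Ighg gene and Igha, where its NK level was above 1 TPM, was at least 96.8% secreted in the NK libraries.

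Fitted transcript by transcript with limma (20033 transcripts), the membrane form Ighm-202 was 4.33 lower in NK than in B cells on the log2(TPM + 1) scale (coefficient -4.33, SE 0.33, adjusted p = 2.2e-06; 5.92% of all transcripts tested were lower). The secreted form Ighm-201 had a coefficient of 1.74 (SE 0.67, limma adjusted p = 0.13) and was not called. The secreted transcripts Ighg2c-202 (4.01, SE 0.39), Ighg2b-201 (3.71, SE 0.62) and Igha-201 (3.31, SE 0.73, limma adjusted p = 0.0097) were higher in NK cells, where 5.74% of all transcripts were higher. In B cells against the other 4 types, Ighm-202 was higher by 4.94 (SE 0.26, limma adjusted p = 3.3e-08), where 8.28% of all transcripts were higher and 54.8% lower, while Ighm-201 differed by 0.15 (SE 0.53, adjusted p = 0.82). Kallisto divided the reads between the forms, so these values rest on that division.

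**Figure D3:**
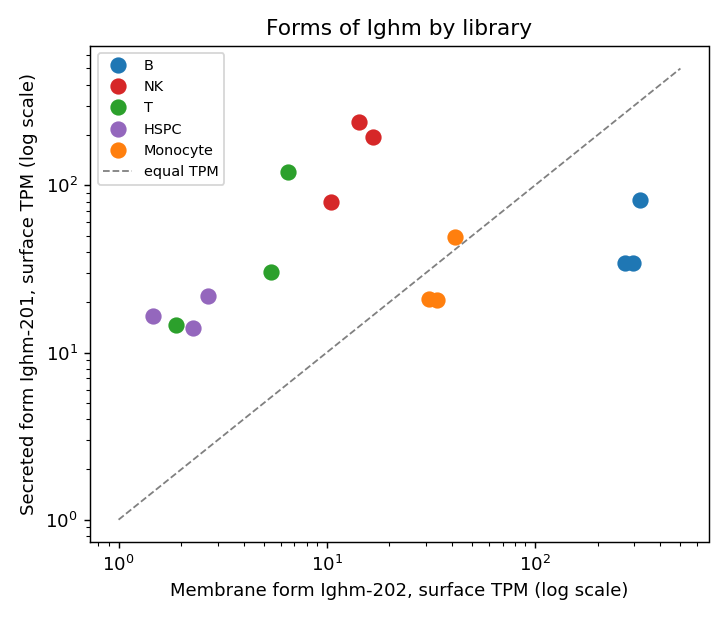
TPM of the secreted form of Ighm against TPM of its membrane form, both on log scales, with 1 point per library in 5 cell types and a dashed line at equal TPM. The B libraries lie below the line, with 10.4% to 20.3% secreted, the NK, T and HSPC libraries above it, with 84.9% to 94.9%, and the monocyte libraries near it, with 38.0% to 54.2%.

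The genes that work with immunoglobulin were counted from a list of 33 (V(D)J joining, class switching, surrogate light chain, receptor signalling, B lineage transcription and secretion), of which 22 were tested. In NK against B cells, 14 were lower (7.12% of all genes tested) and 2 higher (10.8% of all), and 2 of 22 is near the share over all genes. Blnk, Ebf1, Pou2af1 and Vpreb3, 4 of the 14, had passed the filter only through the B libraries, which favoured that direction in advance. All 7 receptor signalling genes, Blnk included, were lower, among them Cd79a, the receptor's signalling chain, with 113, 85.1 and 65.6 TPM in B cells and 3.91, 5.03 and 3.21 TPM in NK cells (log2 difference -4.12, SE 0.21). Mzb1, a chaperone of antibody assembly, had a difference of -2.17 (SE 0.24). The 2 higher genes were Jchain and Prdm1. Jchain, whose protein links IgM and IgA into polymers, measured 12.3, 16.1 and 27.2 TPM in NK cells, 6.06, 1.26 and 2.95 TPM in B cells and 1.53, 3.20 and 10.9 TPM in T cells, and differed by 2.22 (SE 0.54, limma adjusted p = 0.0098) between NK and B cells, a call lost without B library 2. Prdm1, a regulator of plasma cells that NK cells also express, differed by 1.14 (SE 0.16). The list of 7 plasma cell markers summed to 17.5 to 36.7 TPM in NK cells and 12.9 to 27.1 TPM in B cells, with 4 and 3 of the 7 above 1 TPM on average. Other lists also differed between these groups, with neutrophil markers at 24.3 to 33.9 TPM in NK cells and 0 to 0.289 TPM in B cells. Monocyte markers summed to 12.9 to 21.7 and 1.20 to 1.49 TPM, and HSPC markers to 7.25 to 14.2 and 0.44 to 0.60 TPM. T cell markers summed to 3.33 to 8.82 and 0.85 to 1.68 TPM. Erythroid markers, at 11.9 to 65.0 and 0.915 to 15.7 TPM, overlapped. The part of these cells in the immunoglobulin values of the NK libraries was not tested.

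In B cells against the other 4 types, 15 of the 22 genes were higher (8.38% of all genes tested) and 5 lower (54.1% of all, a larger share than that of the list). The higher genes included all 7 receptor signalling and all 5 B lineage transcription genes, with the same 4 genes that passed only through B cells among the 15. Monocytes exceeded B cells in Lyn (79.2 to 91.0 against 8.27 to 13.8 TPM) and Syk (50.6 to 56.5 against 13.9 to 18.2 TPM). They also did so in Btk (16.7 to 18.2 against 2.85 to 4.09 TPM), and Pou2f2 overlapped. The lower genes were Dclre1c, Prkdc and Xrcc4, which join DNA ends, and the plasma cell regulators Prdm1 and Xbp1. In all but Prdm1 every monocyte library was above every other library. Dclre1c had 8.67 to 11.3 TPM in monocytes, 0.77 to 1.02 TPM in B cells and 0.32 to 0.44 TPM in HSPCs. Against T and NK cells, 15 were higher (16.6% of all), again with those 4, and 1 lower (7.27% of all), Prdm1. Rag1, Rag2 and Dntt, which cut and extend the joining ends in developing lymphocytes, did not pass the filter.

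The J genes showed which segments carried the summed level. Igkj1 measured 531, 186 and 322 TPM in B cells, 329, 184 and 498 TPM in NK cells, 8.67, 9.01 and 50.3 TPM in T cells, 4.38, 20.4 and 17.8 TPM in HSPCs and 0, 0 and 58.8 TPM in monocytes. The Igh segments measured 113 TPM (Ighj4) to 369 TPM (Ighj3) in B cells and 36.7 TPM (Ighj4) to 880 TPM (Ighj2) in NK cells, so that the B and NK ranges overlapped. Ighj2 alone had 105, 226 and 880 TPM in the NK libraries, and the last of these values was the highest of any member in any library. Iglj1 measured 69.3, 50.2 and 59.4 TPM in B cells and 0, 103 and 71.1 TPM in NK cells, and Igkj4 19.4 to 65.4 and 10.96 to 103 TPM. Igkj3 and Iglj3p, the segments without a motif, were at most 19.2 and 11.5 TPM and were listed at 0 in all T and monocyte libraries. No J gene was called between NK and B cells, with limma adjusted p-values of 0.47 to 1.00. In monocytes Igkj3, Igkj4, Iglj1 and Iglj3p were listed at 0 in all 3 libraries.

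V gene usage was spread over most of the repertoire in B cells and over fewer genes elsewhere. Of the 214 V genes, 206, 199 and 191 were above 0 TPM in the B libraries, 146, 158 and 178 in NK cells, 136, 130 and 114 in HSPCs, 131, 139 and 177 in T cells, and 27, 28 and 54 in monocytes. The effective number of V genes (the exponential of the Shannon entropy of their TPM shares) was 115, 117 and 111 in B cells and 64.2, 74.6 and 67.4 in NK cells. It was 38.9, 61.6 and 53.6 in HSPCs, 48.4, 65.6 and 61.1 in T cells, and 21.8, 22.3 and 40.7 in monocytes. All B libraries were above all others. This number is also lower at lower sequencing depth, and depth is unknown here. The summed V level of T cells, HSPCs and monocytes was lower.

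The leading V gene of a library took 3.31% (Iglv1), 2.82% (Igkv12-46) and 4.84% (Igkv5-39) of V gene TPM in B cells. In NK cells the leading genes were Igkv10-96 with 13.5%, Igkv12-46 with 7.50% and Igkv15-103 with 8.17%, a different gene in each library. In T cells they were Igkv15-103 with 12.1%, Igkv4-57 with 8.29% and Igkv15-103 with 10.6%. Igkv8-19 took 21.7% in HSPC library 1.

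By the mean over the 15 libraries the leading V genes were Igkv15-103, Igkv5-39, Igkv10-96, Igkv1-117 and Igkv12-46 of Igk, Iglv1, Iglv2 and Iglv3 of Igl, and Ighv3-6, Ighv7-1, Ighv1-26, Ighv2-3 and Ighv1-80 of Igh. This rank pools libraries of unequal level, and NK library 3 and T library 3 had the highest values of Igkv15-103. Igkv15-103 (chr6:68437440-68437925) measured 7.07, 3.27 and 3.25 TPM in B cells, 27.6, 7.45 and 66.4 TPM in NK cells and 7.52, 1.76 and 45.0 TPM in T cells, so all NK libraries were above all B libraries, although limma did not call the gene. Ighv7-1 (chr12:113896408-113896946) measured 1.52, 0.965 and 1.67 TPM in B cells against 8.35, 2.20 and 40.5 TPM in NK cells. Iglv3 (chr16:19241207-19241690) had the opposite order, with 13.2, 12.3 and 10.2 TPM in B cells and 0.839, 4.89 and 1.03 TPM in NK cells, while Iglv1 overlapped, with 32.4, 14.0 and 10.3 TPM in B cells and 15.2, 26.3 and 31.5 TPM in NK cells. Members of a V family share long stretches of sequence, so their single values are uncertain.

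The V profiles of the libraries were compared by Spearman's rank correlation across the 214 V genes, which are not independent replicates and share the library, so no p is given. B libraries resembled each other, with correlations of 0.912 to 0.961, more than NK libraries (0.667 to 0.728), T libraries (0.695 to 0.737), HSPC libraries (0.563 to 0.590) or monocyte libraries (0.188 to 0.228) did. Between NK and T cells, libraries with the same number had correlations of 0.649, 0.789 and 0.909, and libraries with other numbers 0.595 to 0.708. The labels do not say whether equal numbers mark a shared spleen. This correlation rises with the level of the genes and the number above 0, which differed between these groups.

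**Figure D4:**
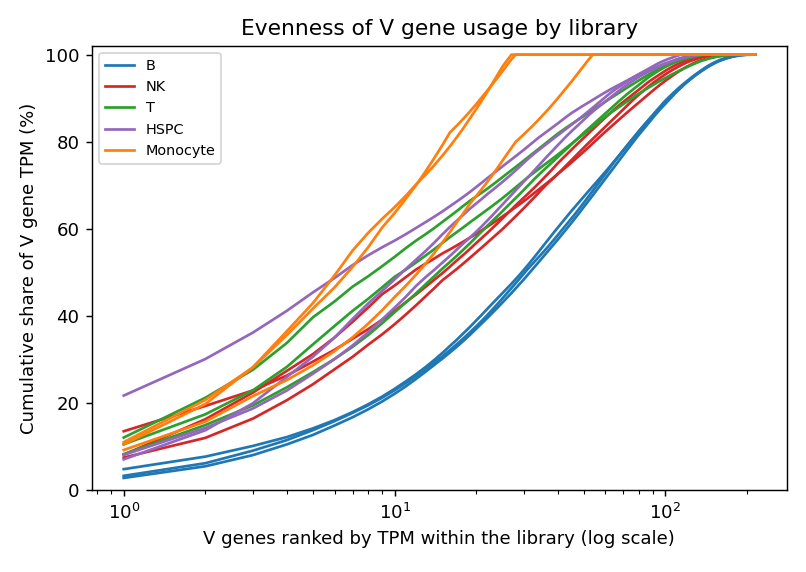
Cumulative share of V gene TPM (%) over the V genes ranked by TPM within each library (log scale), with 1 line per library and 3 per cell type. The 10 leading genes hold 22.1% to 23.3% in the B libraries and 38.1% to 65.0% in the others.

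Monocytes were compared with HSPCs, the other bone marrow type, in the same limma fit. Of the 153 genes, 6 were higher and 1 lower in monocytes, where 91.2% of all genes tested were higher and 0.944% lower. The median log2 difference was -0.04 over the members and 2.31 over all genes, so the direction of a member depends on the scaling. The 6 were Iglc2 (1.76, SE 0.54), Ighg1 (1.68, SE 0.34), Ighm (1.67, SE 0.58, limma adjusted p = 0.014), Igkv1-110 (1.49, SE 0.63), Iglc3 (1.12, SE 0.50) and Ighd (0.70, SE 0.23), and the lower gene was Igkj4 (-2.47, SE 0.84, adjusted p = 0.012). Iglc3 was called in 10 of 24 alternatives and Igkv1-110 in 15 of 23. The call of Iglc3 was lost in 9 of the 15 fits without 1 library, that of Igkv1-110 without HSPC library 1 or 2 or monocyte library 1 or 2, that of Ighd without monocyte library 1 and that of Ighm without monocyte library 3 (adjusted p = 0.053). After quantile normalization 0 of the 153 members were higher (26.2% of all genes) and 27 lower (24.5% of all). Rescaling without ribosomal RNA and the 3 genes of equal value, which left 189 members to test, gave 1 higher (66.5% of all) and 38 lower (5.22% of all). Of the 22 pathway genes tested in the main fit, 14 were higher and 0 lower in monocytes. In that fit 91.2% of all genes were higher, a larger share than that of the list, and 0.944% lower. Blnk, Ebf1, Pou2af1 and Vpreb3, which passed the filter only through the B libraries, were not among the 14. Neutrophil markers summed to 1382 to 1493 TPM in monocytes and 11.02 to 53.8 TPM in HSPCs, and monocyte markers to 2460 to 2964 and 11.1 to 29.1 TPM. B cell markers summed to 3.94 to 11.2 TPM in monocytes and 0.41 to 0.99 TPM in HSPCs, and Cd79a, Cd79b and Pax5 were called higher in monocytes. The part of these cells in the immunoglobulin values was not tested.

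In the PBMC libraries, total counts were 4686426 to 9055797 per library. The files give expected counts, which are compared here as counts per 1000000 (CPM). Immunoglobulin genes summed to 396, 394 and 464 CPM in ct, 406, 383 and 307 CPM in WT and 352, 377 and 403 CPM in Y. The 3 ranges overlapped. Constant genes made up most of it, with a mean of 349 ± 33.4 CPM in ct, 306 ± 41.6 CPM in WT and 316 ± 18.8 CPM in Y (SD, n = 3), and V genes 68.4 ± 7.48, 59.4 ± 9.96 and 61.5 ± 7.43 CPM. The J genes held the largest share of the summed immunoglobulin TPM in all surface libraries but those of T cells. In the PBMC libraries they had almost no counts. TPM divides by length and counts do not, so for segments of 38 to 54 bases these shares cannot be compared. Ighj2 had 3 counts over the 9 libraries, Ighj3 and Ighj4 had 1 each, and the other J genes had 0, which allows up to 0.640 CPM in the shallowest library (a floor of 3 counts, for counting error only). That floor does not cover reads that could not be assigned to so short a segment. The surface and blood values come from different protocols and units and were not tested against each other.

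In terms of heavy chain constant counts, Ighm took 64.4% to 71.9%, Ighd 13.8% to 17.9% and Igha 11.7% to 19.9% in the 9 libraries. Igha was the heavy chain constant gene that edgeR called. It measured 41.9, 50.4 and 41.3 CPM in ct, 30.5, 30.0 and 25.6 CPM in WT and 27.7, 30.1 and 29.8 CPM in Y, and every ct library was above every WT and Y library. Ighg2b, at far lower levels, separated ct likewise, with 1.85 to 2.82 CPM in ct, 1.19 to 1.78 CPM in WT and 0.80 to 1.77 CPM in Y. It was not called against ct in WT (edgeR adjusted p = 0.55) or in Y (edgeR adjusted p = 0.48). Ighg2c had 0.87 to 1.39 CPM in ct, above the 0.36 to 0.70 CPM of WT, while Y overlapped with 0.21 to 1.46 CPM. Ighm measured 158, 163 and 186 CPM in ct, 179, 171 and 137 CPM in WT and 155, 160 and 179 CPM in Y, with overlapping ranges.

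Of the 23 members tested by edgeR's quasi-likelihood test (9 C and 14 V genes, among 11635 genes in all), 2 were lower in WT than in ct (1.6% of all genes tested were lower) and 0 were higher (0.765% of all were higher). Igha fell by 0.56 on the log2 scale (coefficient -0.56, SE 0.11, edgeR adjusted p = 0.0072), a call kept in 15 of 15 alternatives with adjusted p-values of 6.3e-05 to 0.044. Igkv5-48 (chr6:69726573-69727138), a kappa V gene with 3.92, 2.64 and 4.85 CPM in ct and 1.54, 1.15 and 1.66 CPM in WT, differed by -1.30 (SE 0.30, edgeR adjusted p = 0.028), and 9 of 14 alternatives called it, with adjusted p-values up to 0.14. At an unadjusted p under 0.05, these were the only 2 of the 23 members, and DESeq2 called 1 lower and 0 higher, with 2 at an unadjusted p under 0.05. The median log2 difference was -0.14 over the members and 0.00 over all genes.

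In Y against ct, 1 member was lower (0.438% of all genes tested were lower) and 0 were higher (0.266% of all were higher). This was Igha again, with a log2 difference of -0.65 (SE 0.11, edgeR adjusted p = 0.0067), and the call was lost without Y library 3 (adjusted p = 0.080). WT and Y are compared with the same ct libraries, so the 2 results for Igha are not independent. By edgeR 4 members, and by DESeq2 2, had an unadjusted p under 0.05, and DESeq2 called 1 lower and 0 higher. In Y against WT, 0 members were higher (0.438% of all were) and 0 lower (0.817% of all were). By edgeR 2 members had an unadjusted p under 0.05, and DESeq2 called 0 with 1 at an unadjusted p under 0.05. Igha differed by -0.09 (SE 0.11, edgeR adjusted p = 0.83) there.

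Ighm differed by 0.02 (SE 0.08) in WT and -0.08 (SE 0.08) in Y, and Ighd by -0.04 (SE 0.09) and 0.09 (SE 0.09), against ct, and neither was called by edgeR. Of the 33 pathway genes, 23 were tested. Jchain was the 1 gene called, lower in WT than in ct (1.6% of all genes tested were lower and 0.765% higher), with 9.10, 7.47 and 8.80 CPM in ct, 5.23, 4.74 and 4.42 CPM in WT and 5.97, 4.54 and 5.68 CPM in Y. Its log2 difference was -0.75 (SE 0.16, edgeR adjusted p = 0.018) in WT, called in 11 of 15 alternatives, and -0.72 (SE 0.17, adjusted p = 0.065) in Y. The other secretion genes were not called by edgeR.

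The forms could be read from the length that the files give for each gene, which is the mean length of its transcripts weighted by their level. By this length the secreted form was 97.6% to 99.2% of Igha and 14.5% to 28.9% of Ighm in the 9 libraries. Marker lists gave 200.6 to 276 CPM of B cell genes over all 9 libraries, with the 3 groups overlapping, and plasma cell genes of 30.8 to 33.7 CPM in ct, 23.6 to 32.2 CPM in WT and 26.0 to 31.1 CPM in Y. Erythroid genes summed to 6650 to 8084 CPM in ct, 3870 to 5021 CPM in WT and 4872 to 4899 CPM in Y, so they separated ct from the other groups as Igha did. Neutrophil genes summed to 65.6 to 85.9, 51.1 to 65.7 and 189 to 200 CPM. Between WT and ct this list split. S100a8 (-0.71, edgeR adjusted p = 0.00082) and S100a9 (-0.41, adjusted p = 0.034) were lower in WT. Ngp (1.31, edgeR adjusted p = 0.0012) and Ltf (1.01, adjusted p = 0.0045) were higher. The part of these cells in the Igha values was not tested.

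**Figure D5:**
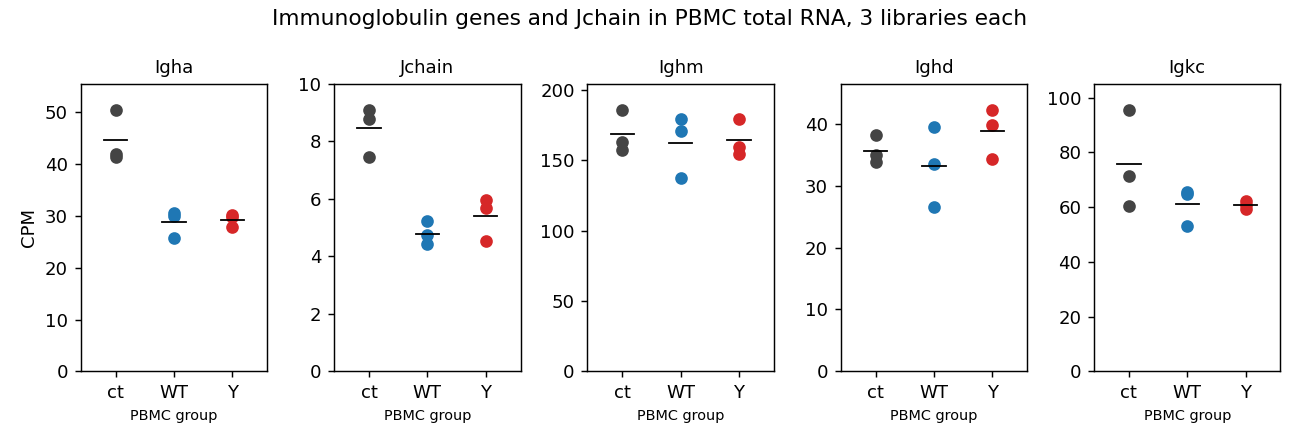
CPM of Igha, Jchain, Ighm, Ighd and Igkc in the 9 PBMC libraries, with 1 point per library (n = 3 per group) and lines at the means. The ct libraries have 41.3 to 50.4 CPM of Igha, above the 25.6 to 30.5 CPM of the WT and Y libraries, whereas the 3 groups overlap for Ighm.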

How the data were processed

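Surface RNA was measured in 15 mouse libraries and total RNA in 9. The authors made the surface values with kallisto as TPM per transcript, after trimming and removal of duplicates, and the deposited tables give 1 per cell type. The murine transcript set was not given in the sources used here. For PBMCs the authors deposited RSEM expected counts per gene, and the submitters' processing notes name STAR, RSEM and mm10. From these files, TPM was summed by gene and tested as log2(TPM + 1) with limma 3.58.1 in one fit of all 5 types; expected counts were rounded and tested with edgeR 4.0.16 (TMM normalization, quasi-likelihood) in R 4.3.3, with DESeq2 1.42.0 as an alternative. Both p-values were adjusted by Benjamini-Hochberg.

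The ribosomal gene that led the PBMC counts held 50.5% to 57.0% of them. The members and all gene lists were chosen with earlier results of these data known. Genes named were every C gene, every J gene above 0, the leading 5 Igh, 5 Igk and 3 Igl V genes by mean level, the 5 called genes of largest change in each direction, and list genes that were called. Position and form of each gene came from GENCODE M21, in which 300 of the 302 member transcripts common to the tables were matched. Both fits were checked on simulated data. Alternatives covered pseudocounts 0.1 and 10, filters, scaling, transcript rows, the groups compared alone, a replicate block, a block of T and NK libraries chosen after seeing the data, and leaving out each library.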

Additional observations from a re-analysis of the deposited data

How the results depend on the processing

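Of the named genes' values recomputed under alternatives other than leaving out 1 library, 1252 kept their side of the threshold, 50 were weaker, 47 stronger and 17 changed sign where called in either fit. Leaving out 1 library gave 2349, 65, 42 and 1. Of those that kept their side, 40 and 82 changed sign without being called in either fit. Without ribosomal RNA and the 3 same-valued genes, summed means were 10710 (B), 7870.3 (NK), 2417 (HSPC), 1338 (T) and 909.6 TPM (monocyte), so that HSPCs passed T cells and monocytes. From constant genes alone they were 784, 613, 63.6, 148 and 128 TPM. Summed CPM without the leading ribosomal gene was 886 (ct), 799.9 (WT) and 779 (Y), and from constant genes alone 349, 306 and 316.

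In B cells against the other 4 types, only genes above 50 TPM (16 members tested) gave 12 higher and 1 lower, against 18.0% and 44.7% of all genes. No filter (236 members), rescaling (189) and quantile normalization (153) gave 1 lower each, against 21.0%, 36.7% and 25.7% of all. Leaving out 1 library gave 81 to 123 higher and 1 to 5 lower (5.95% to 11% and 40.3% to 59.7% of all). Against T and NK cells, genes above 50 TPM gave 6 higher and 1 lower (23.6% and 21.4% of all) and rescaling 97 higher (31.1% of all), and leaving out 1 library gave 29 to 75 higher (9.59% to 22.7%). In NK against B cells, a pseudocount of 0.1 gave 9 lower (6.48% of all), genes above 50 TPM 1 higher and 3 lower (26.2% and 14.2%), no filter 35 lower (2.66%) and rescaling 40 lower (10.6%), and leaving out 1 library 12 to 26 lower (4.36% to 10.3%).

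In monocytes against HSPCs, a pseudocount of 0.1 gave 23 lower (1.37% of all), a pseudocount of 10 gave 3 higher and 0 lower (91.1% and 0.63%), rescaling 1 higher and 38 lower (66.5% and 5.22%), quantile normalization 0 higher and 27 lower (26.2% and 24.5%), single transcripts 3 higher (86.9%), and these groups alone, with 29 members tested, 2 lower (0.725%). Leaving out 1 library gave 4 to 11 higher and 1 to 4 lower (87.4% to 91.9% and 0.707% to 1.45%). All sign changes of a value called in either fit were in this comparison. Under quantile normalization the log2 differences became -0.015 for Ighd, -0.24 for Ighg1, -1.61 for Ighg2b, -2.06 for Ighj1, -1.78 for Ighm, -3.35 for Igkc, -0.80 for Igkv1-110, -2.18 for Igkv15-103, -1.65 for Iglc1, -0.49 for Iglc2, -0.67 for Iglc3, -1.19 for Iglv2 and -1.92 for Jchain. Under rescaling they became -0.45 for Ighm, -1.92 for Igkc, -1.51 for Iglc1 and -0.00014 for Iglc3, and Ighj4 became 1.73 without monocyte library 1. The cause was not tested.

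In PBMCs, WT against ct had 1 lower gene by DESeq2 and in the groups alone (1.03% and 1.25% of all), and 1 to 2 without 1 library (0.928% to 1.43%), and Y against ct had 0 to 1 without 1 library (0.141% to 0.429%). DESeq2 gave Igkv5-48 no adjusted p in WT against ct.

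Deviations of libraries with the same replicate number correlated at -0.0613 to 0.0594 in PBMCs and at -0.26 to 0.468 in surface RNA, where T and NK cells had 0.209 to 0.468 in all 3 pairs, while no other 2 types exceeded 0.1 in every pair. T and NK cells enter the comparisons with B cells as separate libraries. In a fit chosen after seeing the data, with T and NK libraries of the same number as 1 block (estimated correlation 0.567), B cells had 115 higher and 3 lower than the other 4 types (8.34% and 53.2% of all) and 49 and 2 against T and NK cells (14.4% and 6.0%), and NK cells had 6 and 21 against B cells (11% and 7.39%). With the replicate block, B cells had 122 genes higher and 4 lower than the other 4 types (8.78% and 55.3% of all) and 67 and 4 against T and NK cells (17.9% and 7.58%), NK cells 6 and 21 against B cells (11.5% and 7.73%), and monocytes 5 and 1 (91.3% and 0.975%). In PBMCs the replicate block left 2, 1 and 0 genes lower (1.37%, 0.352% and 0.705%).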

Other observations

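The monocyte table held 57 immunoglobulin transcripts that the other 4 tables did not list, and 4 of them were above 0 TPM. A transcript of the kappa segment Igkj2 had 61.5 TPM in monocyte library 2 and 0 in the other 2 monocyte libraries. Of the V genes, 1 such transcript each of Igkv17-127 with 1.20 TPM, Igkv8-27 with 1.28 TPM and Ighv1-31 with 0.714 TPM was above 0 in 1 library. The monocyte table lacked 2 V genes of the other tables, Igkv4-71 and Igkv4-62, which were at most 0.286 and 0.186 TPM in B cells and at 0 in NK cells. The genes common to all tables held at least 99.0% of the TPM of every library.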
